A study of Mus musculus with 12 samples.

Results

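The genes for the proteins of the cytosolic ribosome were followed through the differentiation of mouse embryonic stem cells. They were taken from the authors' expression table by symbol: Rpl or Rps followed by a number, with or without a, x or l and a further digit, and the symbols Rplp0 to Rplp2 and Rpsa. This gave 89 of the 54446 genes in the table, and all 89 passed the filter on low values (at least 1 TPM in at least 3 of the 12 libraries). By the annotation, 77 are protein-coding core genes, 46 of the large and 31 of the small subunit. A further 6 are paralogs (Rpl22l1, Rpl39l, Rps27l, Rpl7l1, Rpl3l and Rpl10l), and 6 are annotated as pseudogenes (Rps4l, Rps12l1, Rpl32l, Rpl6l, Rps3a2 and Rps3a3). The symbol rule misses some genes of ribosomal proteins, of which Fau and Rpl36al are described apart. All libraries come from the E14 line and hold polyA RNA of bulk cells, 3 libraries in each of 4 groups. The first group, mESC, is undifferentiated cells kept with serum and LIF on irradiated mouse embryonic fibroblasts. The other 3 groups are differentiated progeny separated by cell sorting on reporters: T+ cells carry the T (Brachyury) reporter of primitive streak and nascent mesoderm, SOX17+ cells the reporter of an endoderm factor, and SOX17+/T+ cells both. How long and in what medium cells were differentiated and how the reporters were built is not stated in the labels, and the labels name no sort for mESC. By its title the study is about how definitive endoderm emerges and is patterned.

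A ribosome is built from RNA and about equal numbers of each of its proteins, so cells that grow must supply many proteins in step. In mammals most of these proteins come from a single active gene each, with many processed pseudogenes beside it, and a few have a second, intron-containing or retroposed gene copy with a tissue bias. Messenger RNAs of ribosomal proteins typically start with a run of pyrimidines at the cap, the 5' TOP motif, through which mTOR signalling and LARP1 control their translation. Some ribosomal proteins also act away from the ribosome, such as the products of Rpl5 and Rpl11, which bind MDM2.

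Levels are TPM (each library scaled to a fixed total, with transcript length taken into account) as deposited, and differences are of log2(TPM + 1) from limma, given ± the standard error of the fit. Calls rest on adjusted p under 0.05 (Benjamini-Hochberg) over the 16097 genes tested. Whether the 3 libraries of each group are separate cultures is not stated in the labels, and the p-values measure only the spread between libraries. The fragments behind single TPM values are not in the table. T stood at 0.618 to 0.673 TPM in mESC cells, 92.1 to 158 in T+, 31.7 to 61.5 in SOX17+/T+ and 1.86 to 2.84 in SOX17+, and Sox17 had its highest values in SOX17+, so the libraries followed their labels. Other cell types also differed between groups. The summed TPM of 12 fibroblast feeder genes was 2865 to 3562 in mESC, 94.3 to 112 in T+, 64.6 to 76.9 in SOX17+/T+ and 60.7 to 66.5 in SOX17+, where Col3a1, Dcn, Lox and S100a4 were under 1 TPM in every sorted library. The 7 blood genes summed to 95.7 to 232 TPM in SOX17+ against at most 21.8 TPM elsewhere. What part feeder or blood RNA has in the results was not tested.

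The start of a transcript is shown for 5 paralogs (Rpl22l1, Rpl7l1, Rps27l, Rpl39l and Rpl10l), for the parents Rpl22, Rps27, Rpl39, Rpl10 and Rps4x, for Rpl27a, Rpl7a and Rpl15, which are among the core genes with the longest pyrimidine runs, and for Rps6. RefSeq (GRCm38.p6) gave a promoter for 64 of the 89 members. Each window holds the 10 bases before and the first 20 bases after the annotated start, 5' to 3' on the gene's strand, with the longest unbroken run of C and T in capitals. RefSeq and GENCODE place several of these starts at different bases.
Rpl22l1 (chr3:28805498-28805527, +): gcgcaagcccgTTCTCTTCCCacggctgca
Rpl22 (chr4:152324426-152324455, +): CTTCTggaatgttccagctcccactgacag
Rpl22, other start (chr4:152325716-152325745, +): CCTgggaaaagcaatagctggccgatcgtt
Rpl7l1 (chr17:46782637-46782666, -): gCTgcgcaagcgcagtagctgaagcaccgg
Rps27l (chr9:66946076-66946105, +): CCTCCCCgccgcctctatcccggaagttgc
Rps27 (chr3:90213629-90213658, -): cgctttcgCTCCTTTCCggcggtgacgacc
Rpl39l (chr16:10170218-10170247, +): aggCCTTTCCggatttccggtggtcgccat
Rpl39 (chrX:37085203-37085232, -): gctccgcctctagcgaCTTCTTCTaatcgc
Rpl10l (chr12:66284382-66284411, -): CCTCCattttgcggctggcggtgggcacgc
Rpl10 (chrX:74270806-74270835, +): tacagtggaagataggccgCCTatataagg
Rps4x (chrX:102189372-102189401, -): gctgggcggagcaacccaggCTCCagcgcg
Rpl27a (chr7:109519185-109519214, +): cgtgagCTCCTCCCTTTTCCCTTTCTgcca
Rpl7a (chr2:26910797-26910826, +): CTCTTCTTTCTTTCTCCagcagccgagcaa
Rpl15 (chr14:18270967-18270996, -): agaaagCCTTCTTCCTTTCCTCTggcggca
Rps6 (chr4:86857348-86857377, -): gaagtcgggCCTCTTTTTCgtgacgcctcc
An unbroken run of at least 8 C or T was present in 25 of the 64 members (39.1%), and in 3517 of the 27025 genes of the promoter table (13.0%). Of the core genes 23 of 57 had such a run (40.4%). Of the 6 paralogs 1 had it, Rpl22l1. On the opposite strand, read the same way, the run was found in 4.69% of members and 15.4% of all genes. These windows and the minimum of 8 were chosen after expression values were seen. A run is a description of these letters and not evidence of a motif in use, and the windows of the other members say nothing about theirs.

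Ribosomal protein transcripts made up a larger share of summed TPM in the sorted cells than in the stem cells. The 89 members held 15.0%, 15.1% and 15.2% of all TPM in the mESC libraries. In T+ they held 22.2%, 22.6% and 22.4%, in SOX17+/T+ 22.4%, 22.7% and 22.2%, and in SOX17+ 20.8%, 21.2% and 20.9%. The mESC libraries lay below all others, SOX17+ lay between, and T+ and SOX17+/T+ overlapped. The means were 15.1 ± 0.0868% (SD, n = 3), 22.4 ± 0.217%, 22.4 ± 0.248% and 21.0 ± 0.219%, so the share in T+, SOX17+/T+ and SOX17+ was 1.49, 1.49 and 1.39 times that in mESC. Core small subunit genes went from 6.23% to 9.83%, 9.82% and 9.29%, and core large subunit genes from 8.42% to 12.1%, 12.2% and 11.3%. Ratios to mESC were 1.58, 1.58 and 1.49 for the small and 1.44, 1.45 and 1.34 for the large subunit. A share of TPM in bulk cells does not separate a smaller number of cells of a type from less RNA per cell. The 2 cannot be told apart here. The share of mitochondrially encoded RNA moved the same way, from 4.16% in mESC to 6.53%, 6.51% and 5.98%, and its part in the result was not tested. Without those RNAs in the total the members held 15.7%, 24.0%, 24.0% and 22.3% in mESC, T+, SOX17+/T+ and SOX17+.

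**Figure D1:**
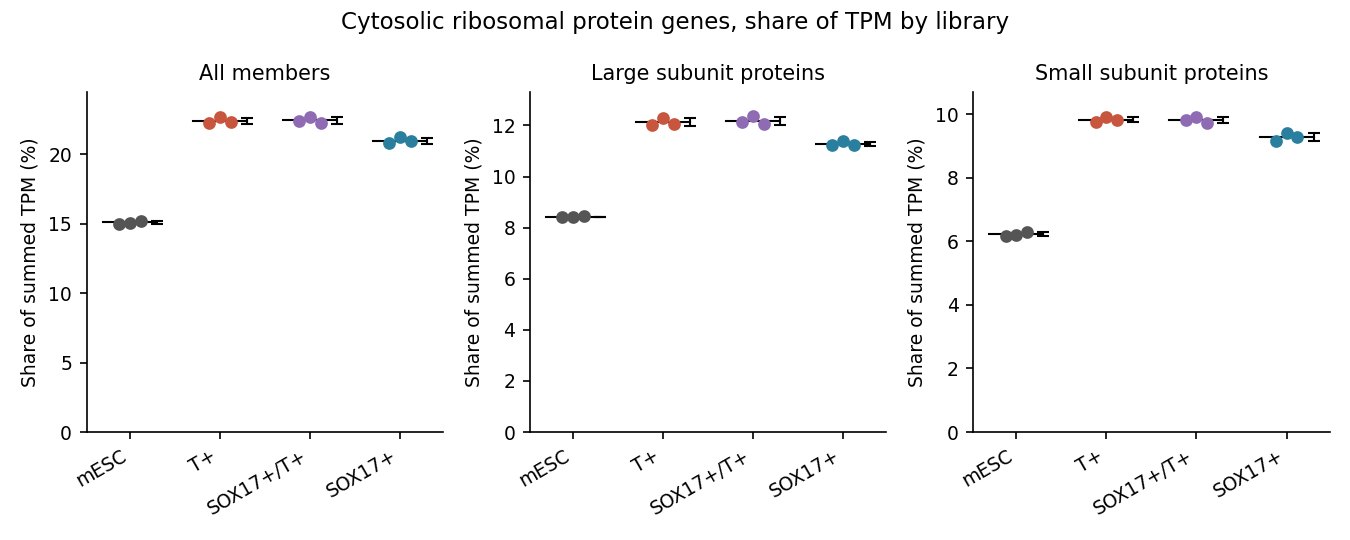
Share of summed TPM (%) held by all 89 members, by the 46 core large subunit genes and by the 31 core small subunit genes, with a point per library, a bar at the group mean and a bracket of 1 SD (n = 3). In all 3 panels the mESC libraries lie lowest and the SOX17+ libraries lie below those of T+ and SOX17+/T+.

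Nearly all core genes were higher in each sorted population than in mESC. Against mESC, 79 members were higher and 6 lower in SOX17+ cells, where 35.4% of all tested genes were called higher and 50.0% lower. In T+ cells 82 members were higher and 6 lower, beside 34.5% and 49.5% of all genes. In SOX17+/T+ cells 81 were higher and 6 lower, beside 34.9% and 50.3%. These 3 comparisons share the mESC libraries. The 6 lower members were the same in each. Rpl10l, Rpl39l and Rpl3l among them passed the filter through the mESC libraries alone and so had to differ. Of the 77 core genes 73, 76 and 75 were higher and 4, 1 and 2 were not called, and in 74, 76 and 75 of them all 3 libraries lay above all mESC libraries, which held for 35.9%, 35.6% and 35.5% of all genes tested. The median difference over all members was 0.48, 0.57 and 0.59 in SOX17+, T+ and SOX17+/T+, against -0.18, -0.17 and -0.19 over all genes tested. Among core small subunit genes the median was 0.59, 0.64 and 0.67, and among core large subunit genes 0.41, 0.51 and 0.52. How high a core gene stood relative to the others changed little: ranks of mean TPM over the 77 genes correlated at Spearman's rho 0.937 to 0.952 between mESC and the sorted groups and 0.991 to 0.996 among the sorted groups (a description across genes of shared libraries). The difference from mESC had almost no rank correlation with the exonic length of the gene (rho 0.0111 to 0.0289) and a weak positive one with its mean TPM (rho 0.303, 0.259 and 0.273 in SOX17+, T+ and SOX17+/T+).

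The size of the rise depended on how libraries were scaled, and under quantile normalisation some core genes turned round. With median-of-ratios scaling the median over all genes was -0.04, -0.04 and -0.04 in SOX17+, T+ and SOX17+/T+, and that of the members 0.65, 0.72 and 0.77. With quantile normalisation the medians were 0.05, 0.07 and 0.06 over all genes and 0.13, 0.21 and 0.19 over members. Quantile normalisation gives every library the same values by rank. Of the 200 most abundant genes, 75 were members in each mESC library and 77 in each sorted library. Of the 100 most abundant, 49 or 50 were members in mESC libraries and 57 to 61 in sorted libraries, so members also rose in rank. A rise in level shared by the most abundant genes is reduced by this setting itself. In that setting 53 of 77 core genes were still higher in each comparison, but 16, 15 and 17 were lower. Of all genes, 44.7%, 45.0% and 44.9% were higher and 40.5%, 39.3% and 39.5% lower in that setting. Members that were higher made up 92.9%, 93.2% and 93.1% of all called members as deposited, and 72.84%, 73.75% and 71.95% after quantile normalisation. The called members include Rpl10l, Rpl39l and Rpl3l, which passed the filter through the mESC libraries alone. Core genes lower in all 3 sorted groups than in mESC in that setting included Rpl13a, Rpl19, Rpl24, Rpl27, Rpl4, Rpl6, Rpl7a, Rpl8, Rplp1 and Rps29. Under all 5 scalings run (as deposited, median of ratios, quantile, and totals without the members or without mitochondrially encoded genes), 49 core genes were higher in all 3 sorted groups.

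**Figure D2:**
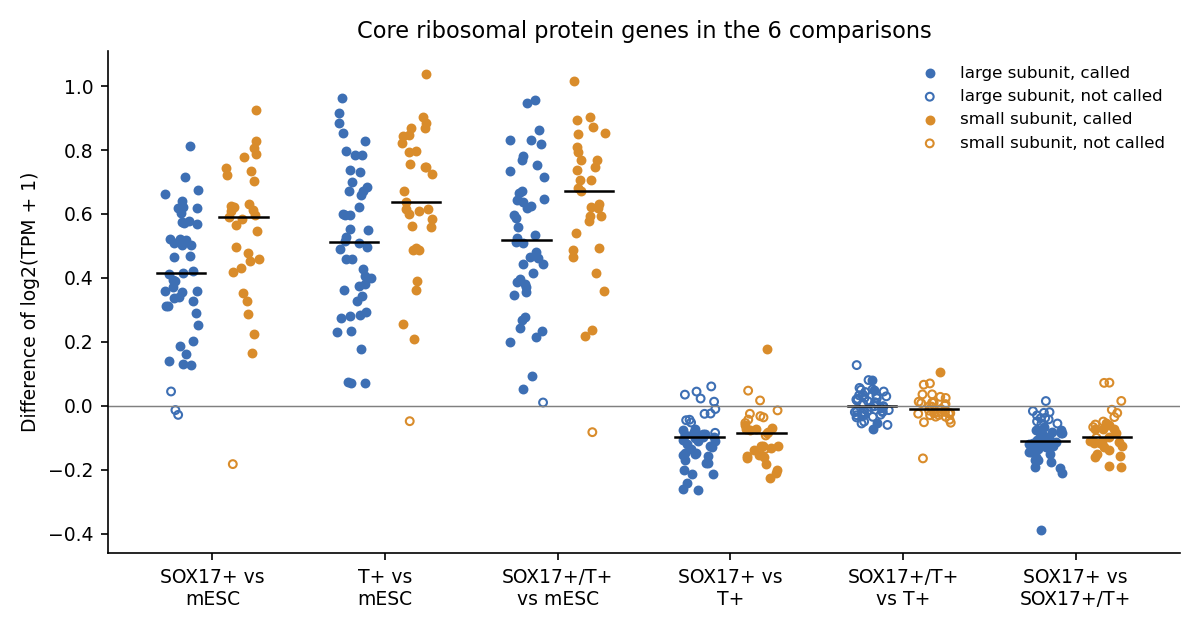
Difference of log2(TPM + 1) for each of the 77 core genes in the 6 comparisons (large subunit blue, small subunit orange, filled points called at an adjusted p under 0.05, open points not called, bars at medians). Against mESC nearly all points lie above 0, between SOX17+/T+ and T+ they lie around 0, and in the comparisons of SOX17+ with T+ and with SOX17+/T+ most lie slightly below 0.

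Among small subunit proteins the gene with the largest rise in T+ and SOX17+/T+ was Rps19, a protein needed to process the small subunit's rRNA and mutated in Diamond-Blackfan anaemia. The Rps19 gene (chromosome 7, 24884371 to 24889806, GRCm38) had 1379, 1395 and 1386 TPM in mESC cells, 2802, 2896 and 2853 in T+, 2764, 2858 and 2788 in SOX17+/T+ and 2414, 2478 and 2495 in SOX17+. All sorted libraries lay above mESC, and SOX17+ lay between mESC and the other sorted groups. The differences from mESC were 1.04 ± 0.019 in T+, 1.01 ± 0.019 in SOX17+/T+ and 0.83 ± 0.019 in SOX17+ (limma, adjusted p = 2.5e-14, 3.0e-14 and 2.0e-13). Rps2, whose product lies near the mRNA entry channel, rose most in SOX17+ instead. Its values were 3127, 3138 and 3091 TPM in mESC cells, 5302, 5305 and 5107 in T+, 5702, 5789.7 and 5425 in SOX17+/T+ and 5909.9, 6173 and 5706 in SOX17+. Its values climbed from mESC to T+, SOX17+/T+ and SOX17+, with the last pair overlapping. The differences from mESC were 0.75 ± 0.029 in T+, 0.85 ± 0.029 in SOX17+/T+ and 0.93 ± 0.029 in SOX17+ (limma, adjusted p = 3.0e-11, 8.2e-12 and 3.4e-12). Of its 100-base transcript windows 30.2% also occur in other genes, Rps2 pseudogenes among them, so reads could be split between them.

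Rps3, a protein of the mRNA entry site that also acts in DNA repair, was 0.88 ± 0.020 higher in T+, 0.89 ± 0.020 in SOX17+/T+ and 0.81 ± 0.020 in SOX17+ (limma, adjusted p = 1.4e-13, 1.3e-13 and 3.1e-13). Rps6, the target of S6 kinase, stood at 1863 ± 33.1 TPM in mESC (SD, n = 3) and rose by 0.67, 0.67 and 0.55 in T+, SOX17+/T+ and SOX17+. Rps27a, which encodes ubiquitin fused to a ribosomal protein, rose by 0.64, 0.62 and 0.56. Rpsa, also known as the laminin receptor precursor, rose by 0.62, 0.68 and 0.63. Rps12 had the highest mean TPM of all members (5077 over the 12 libraries), ahead of Rps2 (4981) and Rplp1 (4904). The 1 small subunit core gene not called against mESC was Rps15a. Its level was 298, 398 and 439 TPM in mESC cells, 355, 359 and 371 in T+, 342, 351 and 367 in SOX17+/T+ and 321, 335 and 332 in SOX17+ (limma, adjusted p = 0.69, 0.49 and 0.14). The mESC libraries alone span the range of all others. Without mESC replicate 1, Rps15a was lower in all 3 sorted groups, by -0.21, -0.24 and -0.34 in T+, SOX17+/T+ and SOX17+ (limma, adjusted p = 7.2e-04, 2.1e-04 and 1.1e-05).

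Among core large subunit genes, Rpl39 encodes a very small protein of the exit tunnel. Levels of Rpl39 were 872, 880.01 and 899 TPM in mESC cells, 1649, 1677 and 1683 in T+, 1576, 1629 and 1616 in SOX17+/T+ and 1410.2, 1482 and 1466 in SOX17+. All sorted libraries lay above mESC, with T+ highest, then SOX17+/T+ and SOX17+, and no group overlapped another. The differences from mESC in T+, SOX17+/T+ and SOX17+, the order kept in what follows, were 0.92 ± 0.023, 0.86 ± 0.023 and 0.72 ± 0.023 (limma, adjusted p = 3.5e-13, 6.3e-13 and 3.6e-12). Rpl10a, which has been linked to selective translation, rose by 0.83 ± 0.094, 0.96 ± 0.094 and 0.57 ± 0.094, with a wide spread of 1205 to 1523 TPM within mESC. The 5S particle proteins Rpl5 and Rpl11 rose by 0.66 and 0.50 in T+, by 0.63 and 0.51 in SOX17+/T+ and by 0.50 and 0.41 in SOX17+. Rpl38, known from a mouse mutant with altered Hox translation, rose by 0.53, 0.56 and 0.50 in the same order.

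The stalk proteins, which recruit translation factors, rose less than most. Rplp0 stood at 2125, 2137 and 2153 TPM in mESC cells, 2720.2, 2679 and 2649 in T+, 2726, 2797 and 2693 in SOX17+/T+ and 2718, 2838 and 2745 in SOX17+. The sorted libraries all lay above mESC and overlapped one another. As deposited, Rplp0, Rplp1 and Rplp2 were 0.33, 0.29 and 0.34 higher in T+, 0.36, 0.35 and 0.39 in SOX17+/T+ and 0.37, 0.33 and 0.36 in SOX17+, but after quantile normalisation Rplp1 was lower in all 3 groups, Rplp0 was lower in T+ and SOX17+/T+ and turned negative without a call in SOX17+, and Rplp2 did so in T+. Rpl24, the gene of the Belly spot and tail mouse, rose by 0.23, 0.22 and 0.14 as deposited and fell in all 3 groups after quantile normalisation. At the low end, Rpl15, Rpl21 and Rpl27 were each 0.07 higher in T+, although Rpl27 fell in all 3 groups after quantile normalisation. In SOX17+ the differences of Rpl15, Rpl21 and Rpl27 were -0.03, -0.01 and 0.04 (limma, adjusted p = 0.28, 0.55 and 0.059). Of the genes printed above for their long pyrimidine runs, Rpl27a rose by 0.49, 0.51 and 0.39 in T+, SOX17+/T+ and SOX17+, and Rpl7a by 0.23, 0.20 and 0.16, with Rpl7a lower in all 3 groups after quantile normalisation.

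The paralogs split from their parents, and in opposite directions. Rpl22l1, a close relative of Rpl22, lies on chromosome 3 (28805436 to 28807424). Its 3 libraries per group gave 172, 178 and 184 TPM in mESC cells, 477, 471 and 484 in T+, 464, 467 and 451 in SOX17+/T+ and 466, 496 and 468 in SOX17+. The mESC libraries lay far below all others, and among sorted groups SOX17+ overlapped both T+ and SOX17+/T+, while T+ lay above SOX17+/T+. The difference from mESC was the largest rise of any member: 1.42 ± 0.031 in T+, 1.37 ± 0.031 in SOX17+/T+ and 1.41 ± 0.031 in SOX17+ (limma, adjusted p = 1.2e-13, 1.7e-13 and 1.2e-13), or 2.68-, 2.59- and 2.67-fold in mean TPM. Rpl22 itself stood at 664, 635 and 692 TPM in mESC cells, 754, 752 and 748 in T+, 781, 793 and 769.6 in SOX17+/T+ and 719, 728 and 726 in SOX17+. It rose by 0.18, 0.24 and 0.13. The paralog therefore went from 26.9 ± 1.02% of its parent (SD, n = 3) to 63.5 ± 1.02% in T+, 59.0 ± 0.408% in SOX17+/T+ and 65.8 ± 1.98% in SOX17+.

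Rps27l and Rpl7l1 went the other way while their parents rose as deposited (after quantile normalisation Rpl7 fell in SOX17+ and SOX17+/T+ and was no longer called in T+). Rps27l (chromosome 9, 66946086 to 66949516) is a p53-responsive relative of Rps27. Its level was 679, 686 and 671 TPM in mESC cells, 501, 507 and 498 in T+, 483, 499 and 478 in SOX17+/T+ and 471, 487 and 462 in SOX17+. No sorted library reached mESC, and the fall was -0.43 ± 0.025, -0.48 ± 0.025 and -0.52 ± 0.025 (limma, adjusted p = 1.7e-09, 6.1e-10 and 2.5e-10). Rps27 was 1782 ± 64.6 TPM in mESC and rose by 0.80, 0.75 and 0.60, so Rps27l went from 38.1 ± 1.71% of Rps27 to 16.2 ± 0.300%, 16.3 ± 0.276% and 17.6 ± 0.454%. Rpl7l1 (chromosome 17, 46773907 to 46782672) is related to a yeast ribosome assembly factor rather than being a fixed part of the ribosome. Its values were 210.3, 208 and 208 TPM in mESC cells, 90.8, 91.6 and 93.4 in T+, 88.7, 85.5 and 94.1 in SOX17+/T+ and 96.5, 95.6 and 98.1 in SOX17+. The fall was -1.18 ± 0.035, -1.22 ± 0.035 and -1.10 ± 0.035 (limma, adjusted p = 2.1e-12, 1.5e-12 and 3.6e-12), and the SOX17+ libraries lay above the other sorted ones. Its share of Rpl7 went from 8.99 ± 0.136% to 2.70 ± 0.0622%, 2.76 ± 0.143% and 3.35 ± 0.0512%.

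Rps4l, on chromosome 6 (148354656 to 148355598), is annotated as a pseudogene, and 1.66% of its 100-base transcript windows occur in another gene (Rps4l-ps). Its level was 1006, 998 and 987 TPM in mESC cells, 179, 176 and 194 in T+, 138, 139 and 154 in SOX17+/T+ and 120.5, 116 and 128 in SOX17+. No group overlapped another, with mESC highest, then T+, SOX17+/T+ and SOX17+. Rps4l fell by -2.44 ± 0.050 in T+, -2.79 ± 0.050 in SOX17+/T+ and -3.03 ± 0.050 in SOX17+ (limma, adjusted p = 5.5e-14, 1.6e-14 and 7.2e-15), and from 40.8 ± 0.906% of Rps4x to 4.45 ± 0.251%, 3.53 ± 0.255% and 3.22 ± 0.164%. Rpl10l, a retroposed copy known from testis (chromosome 12, 66283379 to 66284401), stood at 191, 188 and 186 TPM in mESC cells, 0.140, 0.175 and 0.250 in T+, 0, 0.120 and 0 in SOX17+/T+ and 0.0350, 0 and 0.0387 in SOX17+. Rpl39l, another gene with a testis bias (chromosome 16, 10170226 to 10174911), stood at 103, 98.5 and 99.0 TPM in mESC cells, 0.189, 0 and 0 in T+, and was listed at 0 in all libraries of SOX17+/T+ and SOX17+. Rpl3l, the muscle relative of Rpl3 (chromosome 17, 24727820 to 24736143), stood at 1.53, 1.35 and 1.47 TPM in mESC and was listed at 0 elsewhere except for 0.141 in SOX17+ replicate 2. Rpl10l, Rpl39l and Rpl3l passed the filter through the mESC libraries alone and so had to differ, and nothing is read from their calls. In mESC Rpl10l stood at 8.50 ± 0.146% of Rpl10 and Rpl39l at 11.3 ± 0.439% of Rpl39, and no 100-base window of either occurs in another gene.

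**Figure D3:**
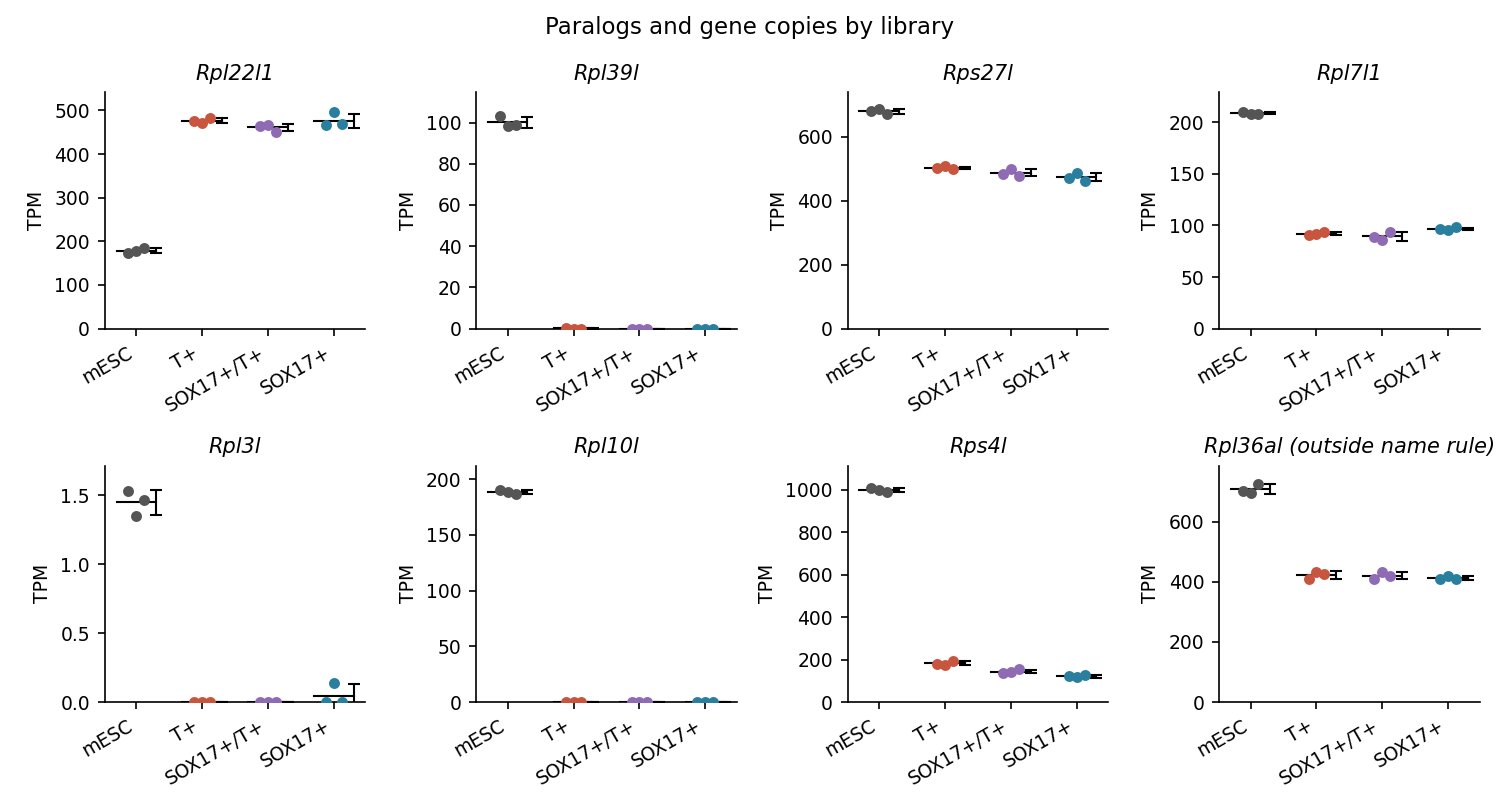
TPM by library of the 6 paralogs, of Rps4l and of Rpl36al, each panel from 0 on its own scale, with a point per library, a bar at the group mean and a bracket of 1 SD (n = 3). Rpl22l1 is lowest in mESC and the other 7 genes are highest there.

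The change in the balance of paralog and parent was tested on log2 ratios in the 4 pairs with no library at 0. An exact permutation test over all 369600 assignments of the 12 libraries to the 4 groups gave p = 0.00013 for Rpl22l1 to Rpl22 and for Rps4l to Rps4x, and p = 0.00045 for Rps27l to Rps27 and for Rpl7l1 to Rpl7 (adjusted over the 4 pairs, 0.00026 and 0.00045). In the exact permutation test of a single pair of groups, 3 libraries against 3, p cannot go below 0.1 (2-sided), which was reached in every comparison of these ratios with mESC. Rpl36al, an autosomal copy of X-linked Rpl36a that the symbol rule leaves out, stood at 701, 697 and 727 TPM in mESC cells, 409, 434 and 427 in T+, 408, 433 and 420.4 in SOX17+/T+ and 410.1, 419.9 and 408 in SOX17+. It fell by -0.74 ± 0.030, -0.75 ± 0.030 and -0.78 ± 0.030 (limma, adjusted p = 3.8e-11, 3.4e-11 and 2.3e-11) while Rpl36a rose by 0.85, 0.83 and 0.64. Rps4x also lies on the X chromosome and rose by 0.75 in T+, while its autosomal copy Rps4l fell. This likeness of the pairs was noticed after the values were seen. Rpl10 and Rpl39 also lie on the X chromosome and rose by 0.55 and 0.92 in T+. Their autosomal copies Rpl10l and Rpl39l passed the filter through the mESC libraries alone, and nothing is read from their calls. Whether the chromosome of the parent has a part in the likeness was not tested. Rps27, on chromosome 3, rose by 0.80 in T+ while Rps27l fell by -0.43. In the autosomal pair of Rpl22 and Rpl22l1 both genes rose.

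Between the sorted groups the differences were small and mostly ran against SOX17+. SOX17+ against T+ had 1 member higher and 60 lower, beside 25.4% of all genes higher and 29.0% lower, with a median of -0.09 against -0.03 over all genes. SOX17+ against SOX17+/T+ had 1 member higher and 59 lower, beside 19.8% and 16.8% of all genes, with a median of -0.10 against 0.00 over all genes. In SOX17+/T+ against T+ only 3 were higher and 3 lower, beside 12.6% and 15.8% of all genes, and 83 were not called. The core genes alone gave 1 higher and 54 lower in SOX17+ against T+, and 56 lower in SOX17+ against SOX17+/T+. After quantile normalisation 6 members were higher and 38 lower in SOX17+ against T+, 3 higher and 30 lower against SOX17+/T+, and 2 higher and 8 lower in SOX17+/T+ against T+. The shares of all genes higher and lower in these comparisons were then 24.8% and 30.7%, 18.1% and 20.0%, and 14.1% and 15.6%. With median-of-ratios scaling SOX17+ against T+ had 2 members higher and 40 lower, beside 4338 and 4467 of the 16097 genes. SOX17+ against SOX17+/T+ had 1 higher and 49 lower in that setting, beside 3164 and 2923 genes. SOX17+/T+ against T+ then had 2 higher and 1 lower, beside 14.8% and 14.3% of all genes. The summed blood genes, highest in SOX17+, moved with this result, and their part in it was not tested.

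Single genes departed from this pattern. Rps2 was the member called higher in SOX17+ than in T+ (0.18 ± 0.029, limma, adjusted p = 1.8e-04). It was also 0.11 ± 0.029 higher in SOX17+/T+ than in T+ (limma, adjusted p = 0.016), a call lost without T+ replicate 3, SOX17+/T+ replicate 1 or SOX17+/T+ replicate 2 (adjusted p = 0.065, 0.058 and 0.068). Rpl41, the shortest ribosomal protein, stood at 3663, 3765 and 3639 TPM in T+, 3898, 3989.8 and 3817 in SOX17+/T+ and 3673, 3679 and 3636 in SOX17+. It was 0.08 ± 0.019 higher in SOX17+/T+ than in T+ (limma, adjusted p = 0.0076) and 0.09 lower in SOX17+ than in SOX17+/T+, a difference that turned positive without a call after quantile normalisation. Rpl12, a protein at the base of the stalk, was also highest in SOX17+/T+, 0.05 ± 0.014 above T+ (limma, adjusted p = 0.019), a call lost without T+ replicate 1, SOX17+/T+ replicate 1 or SOX17+/T+ replicate 2 (adjusted p = 0.075, 0.062 and 0.065). Rpl17 and Rpl7 had their highest means in T+. In SOX17+/T+ against T+ the difference of Rpl17 was -0.05 ± 0.018 (limma, adjusted p = 0.045). Its call was lost without T+ replicate 1, T+ replicate 2 or SOX17+/T+ replicate 1 (adjusted p = 0.094, 0.16 and 0.19), among other settings. That of Rpl7 was -0.07 ± 0.017 (limma, adjusted p = 0.0067, and 0.26 with median-of-ratios scaling). Rpl17 stood at 3399.6, 3451 and 3352 TPM in T+, 3207, 3318 and 3313 in SOX17+/T+ and 2799, 2851 and 2859 in SOX17+. It fell by -0.26 ± 0.018 from T+ to SOX17+ and by -0.21 ± 0.018 from SOX17+/T+ to SOX17+ (limma, adjusted p = 5.6e-08 and 1.7e-06). Rpl7 fell by -0.24 ± 0.017 and -0.17 ± 0.017 in the same comparisons (limma, adjusted p = 7.7e-08 and 7.0e-06). Rpl10a stood at 1921 to 2169 TPM in SOX17+ and 2461 to 2788 TPM in SOX17+/T+, a difference of -0.39 ± 0.094 (limma, adjusted p = 0.0088, and 0.071 after quantile normalisation). Its difference from T+, -0.26 (adjusted p = 0.038), was no longer called without any 1 of 6 libraries: mESC replicate 2, T+ replicates 2 and 3, SOX17+/T+ replicate 3, and SOX17+ replicates 2 and 3. Rpl7l1 was the member called higher in SOX17+ than in SOX17+/T+ (0.11 ± 0.035, limma, adjusted p = 0.022), a call lost without SOX17+/T+ replicate 1, SOX17+/T+ replicate 2 or SOX17+ replicate 3 (adjusted p = 0.063, 0.097 and 0.070). The stalk genes Rplp0, Rplp1 and Rplp2, and Rpsa, Rps12, Rpl10, Rpl14 and Rps25, were among several core genes called in none of these 3 comparisons. Rpl38 and Rps10 were others.

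A few members varied within groups. The median SD of log2(TPM + 1) within groups was 0.0254 over the 89 members, and the largest were 0.162 for Rps10, 0.149 for Rps15a and 0.125 for Rpl10a. Rps10 stood at 3490.4, 2383 and 3518 TPM in SOX17+/T+, at 3338 to 3539.5 in T+ and at 3216 to 3276 in SOX17+. The second SOX17+/T+ library stood alone in this gene. Without it Rps10 was lower in SOX17+ than in SOX17+/T+ (-0.11 ± 0.023, limma, adjusted p = 0.0026) and than in T+ (-0.09 ± 0.021, adjusted p = 0.0023), neither of which was called with it (adjusted p = 0.72 and 0.58). Its rise over mESC was called with and without that library (0.71 and 0.89 in SOX17+/T+).

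The other members annotated as pseudogenes moved with the core genes. Rps3a3, Rps3a2, Rps12l1, Rpl6l and Rpl32l were called higher in all 3 sorted groups under each of the 5 scalings. Rps3a3 rose from 971 ± 9.12 TPM in mESC by 0.75, 0.76 and 0.61 in T+, SOX17+/T+ and SOX17+, and Rps3a1 by 0.60, 0.58 and 0.46. Of their 100-base windows 100% (Rps12l1), 78.6% (Rps3a2), 61.9% (Rpl6l) and 31.6% (Rps3a3) occur in other genes, so these levels may hold reads of the parents. Rpl32l shares no window with another gene and rose by 0.82, 0.69 and 0.65 in T+, SOX17+/T+ and SOX17+. Among core genes the share of such windows had a median of 15.2%, a highest value of 55.3% (Rpl36), and was 0 in 3 genes. These shares count exact matches and pool all annotated transcripts of a gene, so long transcripts add to the total. Rps12, for instance, has 2537 windows, of which 425 are shared. The share within the main mRNA of a gene was not computed, so reads of core genes may be split as well. The processed ribosomal protein pseudogenes outside the symbol rule did likewise. Of 298 such genes 172 were tested, and 148, 152 and 148 were higher in SOX17+, T+ and SOX17+/T+ against 6 lower in each. Of all genes 35.4%, 34.5% and 34.9% were higher and 50.0%, 49.5% and 50.3% lower. Rps4l-ps was among the lower ones, at -1.78, -1.64 and -1.67.

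Other genes of the ribosome's supply chain did not rise with its proteins. The 36 nucleolar and processome factors, which process rRNA, had 34 members lower in SOX17+, 34 in T+ and 35 in SOX17+/T+, with medians of -0.99, -0.92 and -0.96. Heatr1, a processome scaffold, fell by -1.87, -1.70 and -1.71, and the helicase Ddx21 by -1.76, -1.88 and -1.78. Of the 31 large subunit assembly and export factors 30 were lower in each group, led by Bop1 (-1.74, -1.79 and -1.81). Of the 18 RNA polymerase I and rDNA factors 16, 15 and 16 were lower, among them the initiation factor Rrn3 (-1.64, -1.63 and -1.63) and the rDNA-binding protein Ubtf (-1.53, -1.26 and -1.46). The 78 mitochondrial ribosomal proteins, which form a separate ribosome, had 66, 65 and 66 members lower and 5, 5 and 4 higher (medians -0.60, -0.58 and -0.61). Of all genes 50.0%, 49.5% and 50.3% were lower, and the 3 comparisons share the mESC libraries.

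Genes that share the 5' TOP motif were mixed one by one, while their summed share of TPM rose. Of the 20 outside the ribosomal proteins 12 were higher and 8 lower in each sorted group, with medians of 0.23, 0.35 and 0.33 in SOX17+, T+ and SOX17+/T+, the order of the values that follow. Of all genes 35.4%, 34.5% and 34.9% were higher and 50.0%, 49.5% and 50.3% lower. The summed share of the 20 went from 3.45% of TPM in mESC to 4.72%, 4.91% and 4.89%, or 1.37, 1.43 and 1.42 times that in mESC. Eef2, the translocation factor, rose by 1.14, 1.14 and 1.15, and Eif4b by 0.76, 0.83 and 0.82. Vim fell by -1.62, -0.93 and -1.41, and is also a fibroblast gene. Of 16 listed regulators 14, 14 and 15 were lower. The list mixes genes of Myc, mTOR and p53 signalling, so these counts give no direction for ribosome supply. Mycn, a transcription factor that drives growth, fell by -3.21 in SOX17+, -1.67 in T+ and -2.20 in SOX17+/T+, and Trp53, which responds to ribosome stress, by -1.98, -1.53 and -1.80. Its regulator Mdm2 fell by -1.87, -2.03 and -1.80. Of the genes left out by the symbol rule, Fau, which encodes a ubiquitin-like protein fused to a small subunit protein, rose by 0.70, 0.74 and 0.77.

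**Figure D4:**
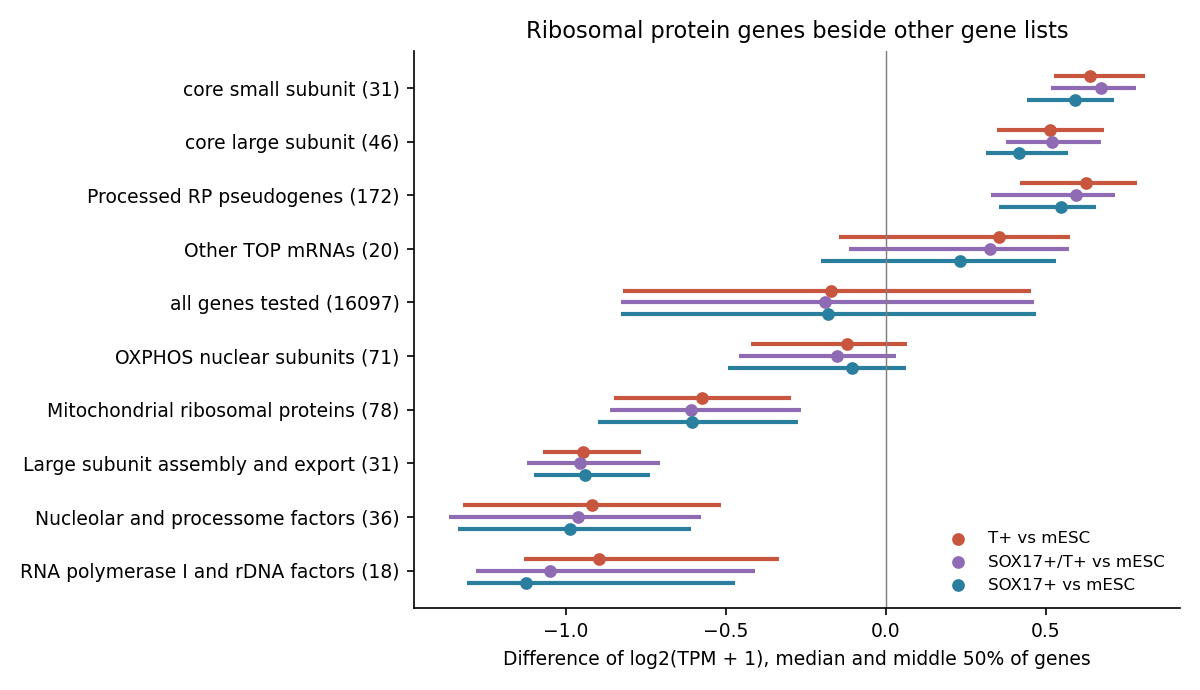
Median (point) and middle 50% (line) of the difference of log2(TPM + 1) from mESC for core small and large subunit genes and other gene lists, with the number of genes tested in brackets. Core genes and ribosomal protein pseudogenes lie above 0, while nucleolar, assembly, RNA polymerase I and mitochondrial ribosome genes lie below the median of all genes.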

How the data were processed

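RNA of 12 libraries (3 in each of 4 groups) was measured by stranded polyA RNA-seq with 500 ng of RNA and 100 bp paired-end reads, to a stated minimum depth, per the labels' protocols. The authors deposited TPM per gene. GRCm38 (mm10), Cutadapt, STAR and StringTie are named in the submitters' processing notes, and neither tool versions nor how reads matching several genes were handled is stated there. The depth behind a TPM value is unknown, so no counting interval is given. Rows of 1 gene were summed (11 genes, 54480 rows), and 282 empty cells were set to 0.

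limma 3.58.1 (R 4.3.3, trend and robust variance) was fitted to log2(TPM + 1) of all 12 libraries with 1 mean per group (8 residual degrees of freedom), 2-sided, over 16097 genes, and checked on simulated data. Alternatives were the pseudocount, the filter, 4 other scalings, the replicate number as a block, only 2 groups, and each library left out. Same-numbered T+ and SOX17+/T+ libraries deviated together across genes (r = 0.204, 0.149 and 0.242), so the numbers may pair these groups, which rests on the data alone. The main fit did not use this pairing. The block gave each replicate number 1 effect shared by all 4 groups, and no paired fit of T+ and SOX17+/T+ alone was run. No other comparison had all 3 correlations over 0.1. SOX17+ and SOX17+/T+ came nearest, with r = 0.046, 0.178 and 0.224 for the same numbers and -0.249 to 0.085 for different ones. Whether these groups are paired is not known. Log2 ratios of paralogs to parents were tested by exact permutation, with every assignment enumerated in Python 3.11.15.

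The members and lists were chosen with earlier results of these data known. Named members are the paralogs and their parents, the 4 largest called rises and falls without overlap in each comparison, the 3 highest and 3 lowest by mean TPM, members with separate roles, those called against all other groups and the 3 of largest spread, and from other lists up to 4 called genes of largest change. Rpl27a, Rpl14, Rps25, Rpl36a, Rps3a1, Rps3a3, the other members of pseudogene type, those with little change and those that turned round by scaling were named after their values were seen, as were the genes whose starts are printed. Transcripts of GENCODE M21 gave the shared windows. Some members are not reported here by name.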

Additional observations from a re-analysis of the deposited data

How the results depend on the processing

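After quantile normalisation some core genes, among them Rpl4, Rpl6 and Rplp1, were lower than mESC in all 3 sorted groups. Members lower against mESC in SOX17+, T+ and SOX17+/T+ numbered 22, 21 and 23 after quantile normalisation against 6 each, and 3 to 7, 3 to 6 and 3 to 6 with 1 library left out: without any 1 of the mESC libraries Rpl10l, Rpl39l and Rpl3l no longer pass the filter. Members higher and lower in SOX17+ against T+ were 6 and 38 after quantile normalisation and 2 and 40 with median-of-ratios scaling. With a library left out 1 to 2 were higher (2 without mESC replicate 1, SOX17+/T+ replicate 3 or SOX17+ replicate 1). In SOX17+/T+ against T+, 8 were lower after quantile normalisation and 1 with median-of-ratios scaling. With a library left out 1 to 4 were higher and 2 to 5 lower, the 1 and the 5 without SOX17+/T+ replicate 2. In SOX17+ against SOX17+/T+, quantile normalisation gave 3 higher and 30 lower, and median-of-ratios scaling 1 higher and 49 lower. In that comparison 2 were higher with the replicate block. The number was 0 when totals left out the members, when only the 2 groups were fitted or without SOX17+/T+ replicate 1 (0 to 1 over the libraries left out). The cause of these shifts was not tested. With the replicate block, whose effects are shared by all groups, SOX17+/T+ against T+ gave 3 higher and 4 lower. The block changed 1 other call of a named gene, that of Rpl10a in SOX17+ against T+ (adjusted p = 0.069 by limma). The share held by members in mESC, T+, SOX17+/T+ and SOX17+ was 15.74%, 23.97%, 24.0% and 22.31% without mitochondrially encoded genes and 16.9%, 25.07%, 25.07% and 23.44% with ribosomal protein pseudogenes and genes outside the symbol rule. Small calls between sorted groups were the least stable: Rpl17, Rpl12, Rps2 and Rpl7 in SOX17+/T+ against T+ and Rpl7l1 in SOX17+ against SOX17+/T+ each lost their call under at least 1 scaling. The exact permutation tests of the 4 ratios kept p at or below 0.00084 with each library left out. Depth is not in the table, so the precision of values under 1 TPM, such as those of Rpl10l in sorted cells, is not known.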
